A study of Mus musculus with 6 samples.

Results

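The proteasome genes of mouse osteoclast cultures were described here from the rows of a deposited RNA-seq table whose symbol begins with Psma, Psmb, Psmc, Psmd, Psme, Psmf or Psmg and a digit. Of 26529 genes in the table, 49 were members by this rule, after 3 pseudogene rows with -ps in the name had been dropped. The 5 immunoproteasome genes Psmb8, Psmb9, Psmb10, Psme1 and Psme2 were kept apart from the other 44. The rule used gene names only and no measured value. Of the 44, 2 belong neither to the particle nor to its known helpers: Psmc3ip, which encodes a factor of meiotic recombination, and Psme2b, a near copy of Psme2 without introns.

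The 6 libraries came from bone marrow-derived macrophages of wild-type C57BL/6 mice aged 8 weeks. All cultures received 20 ng/ml M-CSF, the growth factor that keeps macrophages alive, and 10 ng/ml RANKL, the cytokine under which macrophages become osteoclasts. The 3 libraries of osteoclast precursors (OCP) were from day 3 of culture and the 3 libraries of osteoclasts (OC) from day 6, when the submitters scored cells as positive for tartrate-resistant acid phosphatase with at least 3 nuclei. There was no group without RANKL, and the labels do not say whether replicates are from different animals or dishes, so p-values measure only the spread between these libraries, which may be technical. Values are RPKM, reads scaled to gene length and to the total assigned to genes, and a recovered total of 33219178 to 42121216 reads stood behind each library.

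The proteasome degrades proteins tagged with ubiquitin. Its 20S core is a barrel of alpha rings, which control entry, and beta rings, in which Psmb5, Psmb6 and Psmb7 carry the chymotrypsin-like, caspase-like and trypsin-like active sites. The 19S particle caps the barrel: a base with a ring of ATPases, encoded by the Psmc genes, unfolds the substrate, and a lid removes its ubiquitin. In cells of the blood lineage and under interferon gamma, Psmb8, Psmb9 and Psmb10 take the places of Psmb5, Psmb6 and Psmb7 to form the immunoproteasome, and Psme1 with Psme2 forms the PA28 activator. These forms favour peptides for presentation on MHC class I. In osteoclasts the proteasome acts downstream of RANKL, since it removes the inhibitor that holds NF-kappaB in the cytoplasm, and proteasome inhibitors such as bortezomib block osteoclast formation.

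The marker genes went against the labels. All 11 osteoclast markers were lower in the libraries labelled OC, among them Acp5, the gene of the acid phosphatase used to score the cells, at 642 ± 26.8 in OCP and 338 ± 13.0 RPKM in OC, and Ctsk, the collagen-degrading cathepsin K, at 3249 ± 108 and 1711 ± 25.0 RPKM (SD, n = 3 each). The summed RPKM of these markers was 5122 to 5281 in the OCP libraries and 2744 to 2828 in the OC libraries. Of 10 macrophage markers, 8 were higher and 2 (Csf1r and Cd68) lower in OC, and their sum went from 5330 to 5783 RPKM up to 8456 to 8961 RPKM, most of it Lyz2, the macrophage lysozyme. The neutrophil list summed to 34.5 to 38.1 RPKM in OCP and 48.9 to 53.3 RPKM in OC, with 3 of 3 tested markers higher. Markers of dendritic cells summed to 4.07 to 5.19 RPKM in OCP and 3.46 to 3.86 RPKM in OC, and those of B cells to 3.59 to 4.26 and 2.75 to 3.40 RPKM, most of it Vpreb1. T and NK cell markers summed to 1.45 to 2.10 RPKM in OCP and 0.992 to 1.65 RPKM in OC, and stromal markers to 2.58 to 2.77 and 2.68 to 3.02 RPKM. Cd3d, Cd3e, Gzmb and Ms4a1 were at 0 in all OCP libraries, and Cd3g was at 0 in all OC libraries. Over all genes, libraries of a group correlated at 0.994 or more and libraries of different groups at 0.956 or less. Every direction below is therefore that of the libraries as labelled. Whether the labels of the groups were exchanged, which would turn every direction, was not tested, and the part of these cell-type markers in the proteasome values was not tested.

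Most proteasome genes that differed were lower in the libraries labelled OC, by small amounts, while the 5 immunoproteasome genes gave 1 rise, 1 fall and 3 genes without a call. Of the 44 members outside the immunoproteasome, 43 passed the filter of at least 1 RPKM in at least 3 libraries. In limma across all 12301 genes tested, 21 of the 43 fell at an adjusted p under 0.05 (48.8%), 1 rose (2.33%) and 21 were not called. Over all genes tested, 32.1% were called lower and 23.5% higher, so the share of members called lower was above that background and the share called higher was below it. The median log2 fold change, OC minus OCP on the log2(RPKM + 1) scale, was -0.16 over the 43 members and -0.05 over all genes. With TMM factors, a scaling that resists a few abundant genes, 15 members fell and 3 rose, against 28.5% and 26.2% of all genes, and quantile normalization also gave 15 and 3, against 33.2% and 23.1% of all genes. With quantile normalization the share of members called lower, 34.9%, was thus close to that of all genes. No tested member changed 2-fold. In bulk RNA, fewer cells of a type and less RNA per cell cannot be told apart.

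Counted by library, 24 of the 43 had all 3 OC libraries below all 3 OCP libraries and 4 had them all above. The same held for 36.0% and 26.7% of all genes tested. The 5 immunoproteasome genes had 1 call in each direction, Psme1 higher and Psmb10 lower, and 3 without a call, with a median log2 fold change of 0.05. The member that was not tested, Psma8, a testis form of an alpha subunit, was at 0.638 ± 0.177 in OCP and 0.460 ± 0.159 RPKM in OC.

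**Figure D1:**
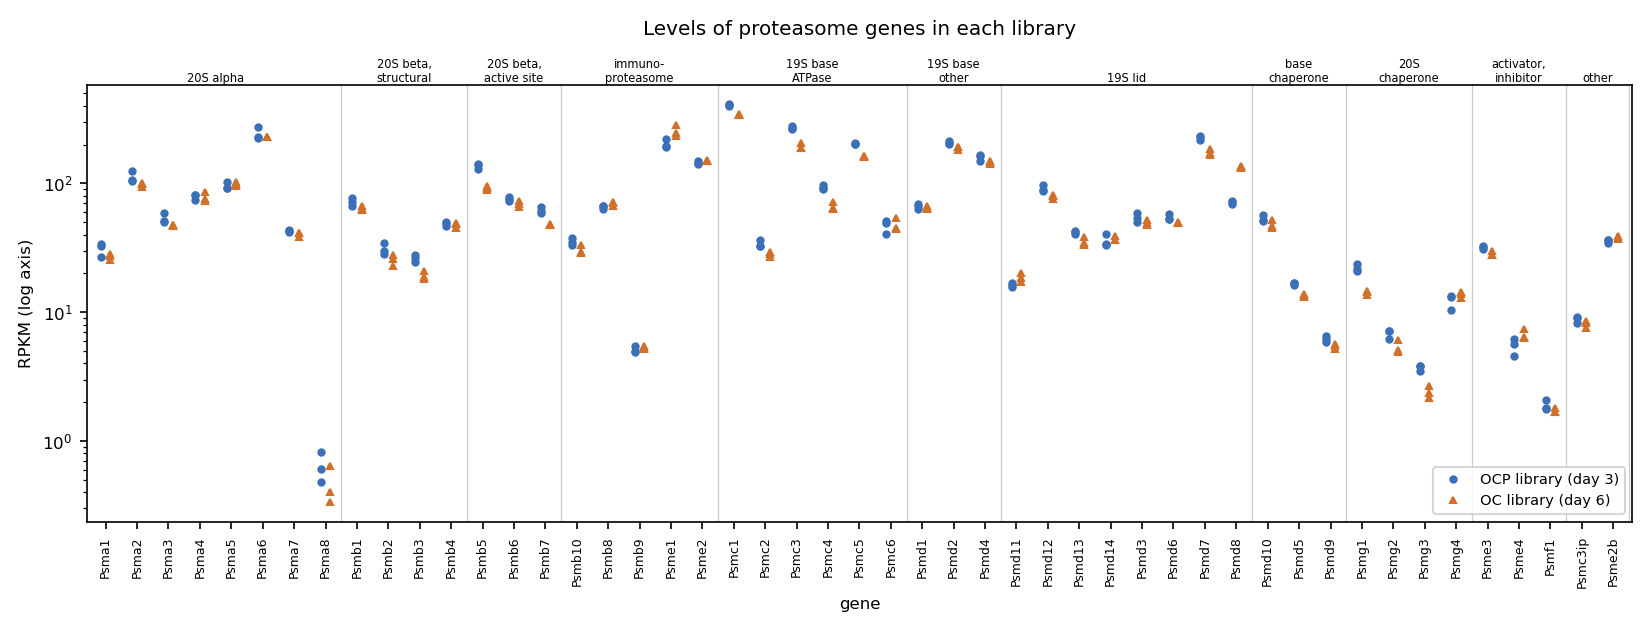
RPKM on a log axis for each of the 49 proteasome genes in each library, grouped by the part of the particle they encode (circles: 3 OCP libraries of day 3; triangles: 3 OC libraries of day 6). Levels run from under 1 RPKM for Psma8 to 405 RPKM for Psmc1 in OCP, and for most genes the distance between the groups is small beside the distance between genes.

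The starts of 4 genes are shown because the largest rise in the 19S particle (Psmd8), the rise in the immunoproteasome group (Psme1) and the shift between the chymotrypsin-like subunits (Psmb5 and Psmb8) turn on them. Each is the RefSeq promoter window of 250 bases before to 50 bases after the gene start on GRCm38.p6, written from 5′ to 3′ along the gene, with capitals marking the motif matches described after the sequences. Psmd8 is on the minus strand at chr7:29180624-29180923, Psme1 on the plus strand at chr14:55578244-55578543, Psmb5 on the minus strand at chr14:54617946-54618245 and Psmb8 on the plus strand at chr17:34197945-34198244. RefSeq and the deposited table place some starts apart: the RefSeq start lies inside the table's gene by 371 bases for Psme1, 474 bases for Psmb8 and 28 bases for Psmd8, so the windows of Psme1 and Psmb8 lie wholly inside the genes as the table measured them.
Psmd8: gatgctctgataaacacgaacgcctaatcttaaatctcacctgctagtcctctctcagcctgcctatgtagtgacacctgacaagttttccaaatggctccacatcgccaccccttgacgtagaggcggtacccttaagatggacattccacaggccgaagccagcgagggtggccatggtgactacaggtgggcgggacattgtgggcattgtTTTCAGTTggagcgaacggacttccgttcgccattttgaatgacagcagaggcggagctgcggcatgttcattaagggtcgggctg
Psme1: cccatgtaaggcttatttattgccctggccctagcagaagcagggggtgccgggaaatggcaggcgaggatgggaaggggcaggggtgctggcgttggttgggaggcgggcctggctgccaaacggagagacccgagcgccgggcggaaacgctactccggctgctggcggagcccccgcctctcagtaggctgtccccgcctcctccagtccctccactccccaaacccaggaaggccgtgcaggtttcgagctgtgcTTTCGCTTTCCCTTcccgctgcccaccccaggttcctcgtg
Psmb5: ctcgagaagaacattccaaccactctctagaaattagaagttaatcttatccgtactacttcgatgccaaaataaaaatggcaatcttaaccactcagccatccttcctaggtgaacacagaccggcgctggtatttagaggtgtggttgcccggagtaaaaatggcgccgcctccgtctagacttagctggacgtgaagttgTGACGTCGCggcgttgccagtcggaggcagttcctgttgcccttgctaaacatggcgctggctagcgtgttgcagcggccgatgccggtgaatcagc
Psmb8: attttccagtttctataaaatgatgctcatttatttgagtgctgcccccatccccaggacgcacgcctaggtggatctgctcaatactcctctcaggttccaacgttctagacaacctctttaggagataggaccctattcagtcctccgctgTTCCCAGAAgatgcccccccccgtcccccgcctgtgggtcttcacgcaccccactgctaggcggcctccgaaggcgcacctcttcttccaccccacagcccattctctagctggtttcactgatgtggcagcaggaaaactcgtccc

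Capitals mark TTTCAGTT in Psmd8 and the overlapping TTTCGCTT and TTTCCCTT in Psme1, which match the core of an interferon regulatory factor site on the reverse strand. They mark TGACGTCGC in Psmb5, a match to the core of the antioxidant response element, and TTCCCAGAA in Psmb8, a match to the gamma-activated sequence of interferon gamma signalling. Both strands were searched for the interferon regulatory factor core AANNGAAA, the gamma-activated sequence TTCNNNGAA, the box CCAAT and the antioxidant core TGACNNNGC in the windows of the 41 members with a RefSeq entry, including all 5 immunoproteasome genes. The interferon regulatory factor core was in 13 members (31.7%) and in 23.9% of 32851 promoter windows. The 41 members had 44 windows, and a member counted if any of its windows matched, whereas the background counts single windows. Among the immunoproteasome genes the interferon regulatory factor core was found in the window of Psme1. The window of Psmb9 also lies wholly inside the gene as measured, with the RefSeq start 434 bases inside it. For Psmb8, Psmb9 and Psme1, bases before the start of the measured gene were thus not searched. Outside the immunoproteasome genes the interferon regulatory factor core was in Psmd8, called higher, and in Psmb3, Psmc2, Psmd6, Psmd9 and Psmg3, all called lower. It was also in Psma3, Psmb4, Psmb6, Psmd4, Psmd11 and Psmg4, which were not called. The gamma-activated sequence was in 3 members (7.32%) and 8.30% of all windows. Those members were Psmb8, not called, and Psmd2 and Psmg1, both called lower. The box CCAAT was in 14 members (34.1%) and 37.4% of all windows, and the antioxidant core in 6 members (14.6%) and 12.4%.  A match is a description of the letters and not of a bound site, and the window of Psmb10 and both windows of Psme2 held none of the 4.

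Among the immunoproteasome genes, Psme1 rose, Psmb10 fell, and Psmb8, Psmb9 and Psme2 were not called. Psme1, the alpha subunit of PA28, was at 191, 220 and 196 RPKM in OCP libraries 1 to 3 and at 246, 286 and 235 RPKM in OC libraries 1 to 3. Every OC library was above every OCP library. The log2 fold change was 0.33 (SE 0.08, adjusted p = 0.011), and it was called in all 14 alternatives. The gene lies at chr14:55578123-55581529 on the plus strand of GRCm38.

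Psme2, the beta subunit of PA28, lies 5911 bases from Psme1 on the other strand, at chr14:55587441-55591113. It measured 148, 145 and 140 RPKM in OCP and 152, 150 and 148 RPKM in OC, so that the lowest OC library lay between OCP libraries (log2 fold change 0.05, SE 0.04, adjusted p = 0.30). The ratio of Psme1 to Psme2 was 1.40 ± 0.112 in OCP and 1.70 ± 0.172 in OC (SD, n = 3 each). All OC ratios were above all OCP ratios, with an exact two-sided permutation p of 0.1, the smallest that 3 against 3 allows. Psme2b, the copy without introns, was at 35.8 ± 1.19 and 37.7 ± 1.01 RPKM (log2 fold change 0.07, adjusted p = 0.22), and reads of Psme2 and Psme2b can be split between them in a way not given in the sources used here.

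Psmb8, the immunoproteasome counterpart of Psmb5, measured 66.3, 67.3 and 63.2 RPKM in OCP and 71.9, 70.1 and 66.6 RPKM in OC. The groups overlapped in 1 OC library, number 3, which was below OCP library 2. The log2 fold change of 0.08 (SE 0.05, adjusted p = 0.18) did not pass, except with quantile normalization (adjusted p = 0.020). Its exons share 186 bases (6.80%) with Gm20496 on the opposite strand, a row at 129 in OCP and 130 RPKM in OC.

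Psmb9, the counterpart of Psmb6, was the lowest of the 5, at 4.93, 4.96 and 5.49 RPKM in OCP and 5.43, 5.17 and 5.26 RPKM in OC. The OC values lay within the OCP range (log2 fold change 0.04, SE 0.06, adjusted p = 0.61). Psmb9 and Tap1, a chain of the peptide transporter into the endoplasmic reticulum, are head to head and share 212 exon bases on chromosome 17. Psmb10, the counterpart of Psmb7, measured 33.5, 37.8 and 35.2 RPKM in OCP and 33.2, 29.1 and 28.6 RPKM in OC. The highest OC library was just below the lowest OCP library, and the fall had a log2 fold change of -0.22 (SE 0.07, adjusted p = 0.027). Of the 14 alternatives, 6 kept this call. Among the others, it was lost without OCP library 2 (adjusted p = 0.079), OCP library 3 (0.064), OC library 2 (0.086) or OC library 3 (0.083), and with TMM factors (0.066), quantile normalization (0.076) or no filter (0.073).

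The constitutive active-site subunits fell or had lower means. Psmb5 was at 138, 142 and 130 RPKM in OCP and 96.0, 89.6 and 91.5 RPKM in OC, a fall by 0.56 on the log2 scale (SE 0.05, adjusted p = 5.2e-05). The groups were far apart beside their spread. The microRNA row Mir686 lies wholly inside a Psmb5 exon on the same strand (109 bases, 12.5% of Psmb5) and moved from 411 to 272 RPKM, so reads over these bases cannot be told apart. Psmb7 was at 65.6, 58.8 and 60.9 RPKM in OCP and 47.6, 47.5 and 48.0 RPKM in OC (log2 fold change -0.36, SE 0.05, adjusted p = 0.00049). It shares 405 exon bases (11.8%) with Nek6 on the opposite strand, which was at 5.82 and 7.78 RPKM. Psmb6 measured 75.3, 78.6 and 73.1 RPKM in OCP and 69.1, 73.4 and 66.0 RPKM in OC, and the groups overlapped (log2 fold change -0.12, SE 0.05, adjusted p = 0.085).

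The 2 versions of each active site were set against each other within a library. RPKM divides by the deposited gene length, 2736 bases for Psmb8 and 871 for Psmb5, so the level of a ratio depends on these lengths. The lengths are the same in every library, so a ratio was compared between the groups. The ratio of Psmb8 to Psmb5 was 0.481, 0.472 and 0.486 in OCP and 0.748, 0.782 and 0.729 in OC. All OC ratios exceeded all OCP ratios, and the mean log2 ratio was higher by 0.65, a 1.57-fold difference (exact two-sided permutation p = 0.1, the smallest possible with 3 against 3, and 0.3 adjusted over the 3 pairs). The ratio of Psmb9 to Psmb6 was 0.0679 ± 0.00638 in OCP and 0.0762 ± 0.00496 in OC, and that of Psmb10 to Psmb7 was 0.577 ± 0.0664 and 0.635 ± 0.0534 (SD, n = 3 each). Both overlapped between groups, with log2 differences of 0.17 (exact permutation p = 0.2, adjusted 0.3) and 0.14 (exact permutation p = 0.4, adjusted 0.4). The design could not reach an adjusted p under 0.05 for any pair. In this pair Psmb5 was called lower and Psmb8 was not called. Of the summed RPKM of the 6 active-site genes, Psmb8, Psmb9 and Psmb10 held 27.3%, 28.2% and 28.2% in OCP and 34.2%, 33.1% and 32.9% in OC. The groups did not overlap (exact permutation p = 0.1), and the size of these shares depends on the gene lengths too.

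**Figure D2:**
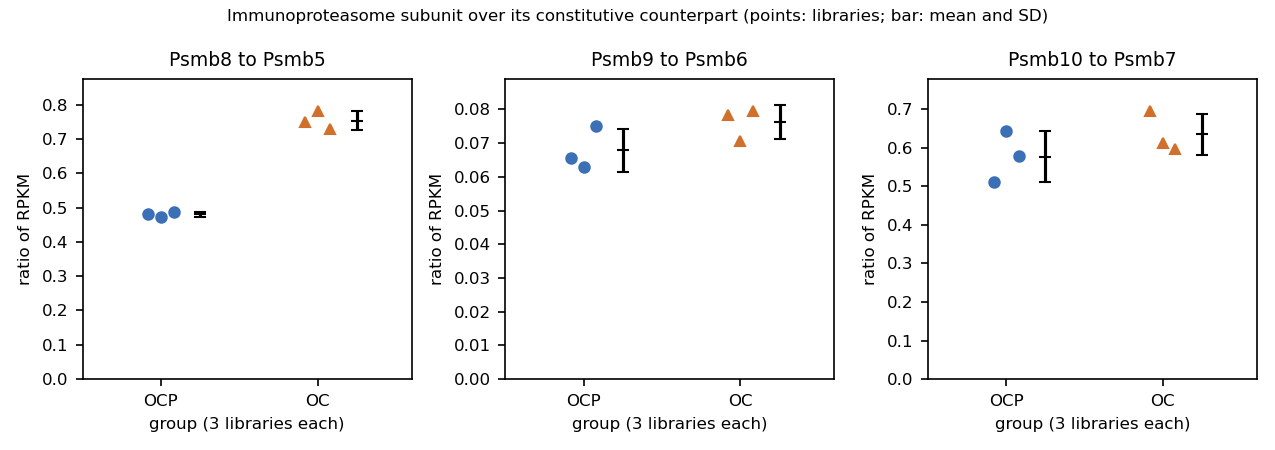
Ratio of RPKM of each immunoproteasome subunit to the constitutive subunit it replaces, in each of the 3 OCP and 3 OC libraries (points), with the mean and SD of each group (bars) on axes that start at 0. The ratio of Psmb8 to Psmb5 lies between 0.472 and 0.486 in OCP and between 0.729 and 0.782 in OC, while the other 2 ratios overlap between the groups.

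In the rest of the 20S core, none of the 7 tested alpha subunits was called, with a median log2 fold change of -0.09. In limma 2 of them had an unadjusted p under 0.05, and voom called 0. Other settings did call some of them lower: Psma1, Psma2 and Psma3 without OCP library 2, and Psma2 and Psma3 with a filter on a mean of 5 RPKM, besides the calls of the replicate block given with the alternatives. Psma1 measured 33.9, 27.0 and 32.4 RPKM in OCP and 27.4, 25.3 and 28.5 RPKM in OC (log2 fold change -0.19, SE 0.09, adjusted p = 0.10). Psma4 measured 81.6, 74.1 and 81.7 RPKM in OCP and 72.5, 86.4 and 76.0 RPKM in OC (log2 fold change -0.02, adjusted p = 0.86). Both genes overlapped between the groups, whereas Psma2, Psma3 and Psma7 had all OC libraries below all OCP libraries without passing the test. Of the 4 beta subunits without an active site, 3 fell (75%, against 32.1% of all genes tested). Psmb3 was at 26.4, 27.5 and 24.6 RPKM in OCP and 20.8, 18.8 and 18.2 RPKM in OC (log2 fold change -0.42, SE 0.06, adjusted p = 0.00084), with no overlap. Psmb1 fell by 0.17 (adjusted p = 0.034) and Psmb2 by 0.26 (adjusted p = 0.041) on the log2 scale. Leaving out any of 4 libraries (OCP 1 or 2, OC 2 or 3) ended either call. Both were also lost with no filter, TMM factors, quantile normalization or neither trend nor robust options, and that of Psmb1 in voom. Psmb1 kept its call in 5 of 14 alternatives and Psmb2 in 6. Psmb4, at 50.5, 49.5 and 47.0 RPKM in OCP and 48.5, 49.6 and 44.7 RPKM in OC, overlapped between groups (log2 fold change -0.04, adjusted p = 0.54).

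Subunits that are built into the particle in equal numbers were not equal in RPKM. RPKM divides by the deposited gene length, which was 2300 bases for Psmb3, 1234 for Psma6, 6383 for Psmd11 and 1518 for Psmc1. The part of these lengths in the spans was not tested. Among the 14 tested constitutive 20S genes, mean RPKM in OCP ran from 26.2 for Psmb3 to 242 for Psma6, a 9.23-fold span, and in OC from 19.2 to 229, a 11.9-fold span. Among the 17 genes of the 19S particle the span was from 16.3 RPKM for Psmd11 to 405 RPKM for Psmc1 in OCP (24.9-fold) and from 18.5 to 342 RPKM in OC (18.5-fold). The summed level of the 15 constitutive 20S genes was 1107 ± 65.6 in OCP and 984 ± 11.5 RPKM in OC, 0.889 times the OCP level. For the 17 genes of the 19S particle it was 2079 ± 26.0 and 1816 ± 18.2 RPKM, or 0.874 times. The 5 immunoproteasome genes summed to 453 ± 19.4 and 510 ± 28.6 RPKM, 1.13 times the OCP level, most of it from Psme1 and Psme2 (SD, n = 3 each).

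In the ATPase ring of the 19S base, 5 of 6 genes fell (83.3%, against 32.1% of all genes tested). The median log2 fold change of the ring was -0.30. Psmc3 was at 263, 280 and 271 RPKM in OCP and 205, 189 and 187 RPKM in OC, a log2 fold change of -0.48 (SE 0.05, adjusted p = 0.00012) with wide separation of the groups. It shares 215 exon bases (8.25%) with Slc39a13 on the opposite strand, which was at 16.4 and 10.4 RPKM. Psmc4 fell by 0.48 (SE 0.06, adjusted p = 0.00023), Psmc5 by 0.33, Psmc2 by 0.26 and Psmc1, the most abundant member, by 0.25 on the log2 scale. All 5 were called in every one of the 14 alternatives. The exception was Psmc6, at 51.4, 40.2 and 49.4 RPKM in OCP and 44.6, 44.2 and 53.4 RPKM in OC. Its groups overlapped (log2 fold change 0.01, SE 0.11, adjusted p = 0.92).

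The other base subunits are the scaffolds Psmd1 and Psmd2 and the ubiquitin receptor Psmd4. Psmd2 was at 201, 215 and 206 RPKM in OCP and 192, 191 and 182 RPKM in OC, a fall by 0.13 on the log2 scale (SE 0.04, adjusted p = 0.033) without overlap. Its call was lost when any library but OCP 1 was left out and was kept in 4 of 14 alternatives. Psmd1 overlapped, at 69.0, 63.7 and 67.3 RPKM in OCP and 63.7, 63.9 and 66.2 RPKM in OC (log2 fold change -0.04, adjusted p = 0.45). Psmd4 had a log2 fold change of -0.13 (adjusted p = 0.082).

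The lid held the largest change of any member, in the opposite direction. Psmd8, a lid subunit, was at 68.6, 72.8 and 72.2 RPKM in OCP and 136, 131 and 133 RPKM in OC, the only lid gene called higher. The 2 groups did not come near each other. Means were 71.2 ± 2.25 and 133 ± 2.42 RPKM (SD, n = 3 each), 1.87 times the OCP level, with a log2 fold change of 0.90 (SE 0.04, adjusted p = 1.9e-06), and the call held in all 14 alternatives. The gene, at chr7:29174188-29180701 on the minus strand, shares no exon bases with another row of the table.

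The other 7 lid genes gave 4 falls and 3 genes without a call. Of all 8 lid genes, 50% were called lower, against 32.1% of all genes tested. Psmd7 went from 226 ± 7.56 down to 175 ± 10.1 RPKM, a log2 fold change of -0.37 (SE 0.05, adjusted p = 0.00062). Psmd12 (log2 fold change -0.21, adjusted p = 0.010) and Psmd13 (-0.22, adjusted p = 0.014) were called lower in every alternative but quantile normalization. There both were still lower but without a call (limma adjusted p = 0.076 and 0.056). Psmd6 fell by 0.13 on the log2 scale (adjusted p = 0.046), a call kept in 2 of 14 alternatives and lost when any library was left out. Psmd14, the deubiquitinase of the lid, measured 40.5, 33.0 and 34.0 RPKM in OCP and 36.6, 36.4 and 39.1 RPKM in OC, which overlapped (log2 fold change 0.07, SE 0.08, adjusted p = 0.51). Psmd3 had a log2 fold change of -0.13 (adjusted p = 0.13). Psmd11, a lid subunit known to favour assembly of the complete particle, was at 16.8, 15.7 and 16.3 RPKM in OCP and 20.2, 17.0 and 18.3 RPKM in OC. All its OC libraries were above the OCP libraries, and its log2 fold change of 0.17 (SE 0.07, adjusted p = 0.056) passed in 6 of 14 alternatives, among them TMM factors (adjusted p = 0.021).

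**Figure D3:**
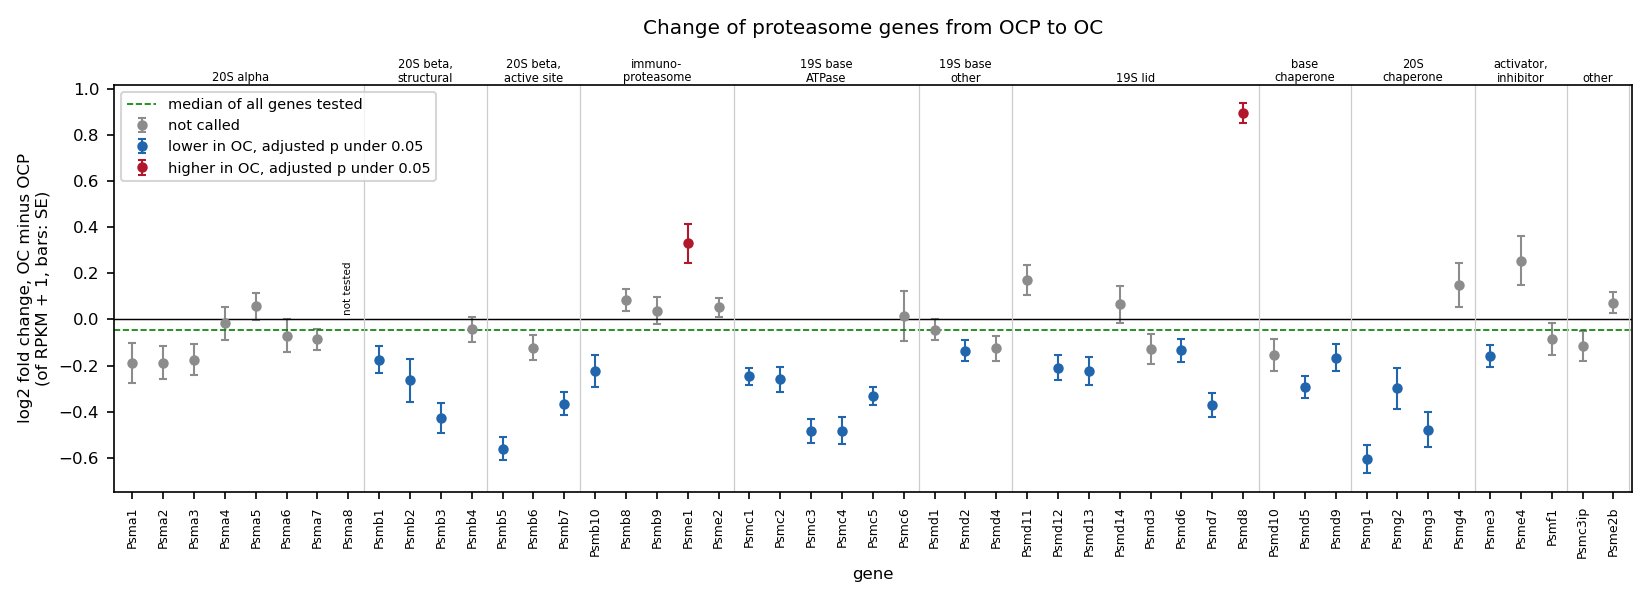
Log2 fold change of RPKM + 1, OC minus OCP, of each proteasome gene with its standard error (bars), coloured by the call at an adjusted p under 0.05, with the median of all genes tested at -0.05 (dashed line). Psmd8 at 0.90 and Psme1 at 0.33 are the genes called higher, and 22 genes are called lower, the lowest being Psmg1 at -0.60.

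Of the 7 chaperones that assemble the proteasome, 5 were called lower (71.4%, against 32.1% of all genes tested). The other 2 were not called, and the median log2 fold change of the 7 was -0.29. Psmg1, which pairs with Psmg2 to seed the alpha ring, was at 21.0, 21.5 and 23.8 RPKM in OCP and 14.6, 14.4 and 13.5 RPKM in OC. The groups were clearly apart, and its log2 fold change of -0.60 (SE 0.06, adjusted p = 9.5e-05) was the largest fall of any member. Psmg2 fell by 0.30 on the log2 scale (SE 0.09, adjusted p = 0.021), a call lost without OCP library 2 or 3 or OC library 1 or 3. Psmg3, which acts on the same ring with Psmg4, was low, at 3.72 ± 0.178 in OCP and 2.40 ± 0.273 RPKM in OC, and fell by 0.48 (SE 0.08, adjusted p = 0.0010). Psmg3 shares 280 exon bases with Gm26938 on the same strand, a row at 8.44 and 5.32 RPKM. Psmg4 did not follow its partner: it measured 13.4, 13.1 and 10.3 RPKM in OCP and 14.2, 13.8 and 12.9 RPKM in OC, with overlap (log2 fold change 0.15, SE 0.09, adjusted p = 0.22).

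Of the chaperones of the 19S base, Psmd5 was at 17.0, 16.3 and 16.7 RPKM in OCP and 13.0, 13.8 and 13.5 RPKM in OC. It fell by 0.29 on the log2 scale (SE 0.05, adjusted p = 0.0011) in all 14 alternatives, with no overlap. Psmd9 fell by 0.16 (adjusted p = 0.043), a call kept in 5 of 14 alternatives and lost without OCP library 1 or 2 or any OC library. Psmd10, also known as gankyrin, measured 57.2, 52.4 and 50.6 RPKM in OCP and 47.0, 44.8 and 52.2 RPKM in OC, and its groups overlapped (log2 fold change -0.15, SE 0.07, adjusted p = 0.098).

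The other activators and the inhibitor were lower in level than Psme1 and Psme2. Psme3, the nuclear activator related to Psme1 and Psme2, went from 31.8 ± 0.867 to 28.4 ± 1.09 RPKM (log2 fold change -0.16, adjusted p = 0.023). Its call was kept in 6 of 14 alternatives, and lost without OCP library 2 or 3 or OC library 2 or 3 and with TMM factors, quantile normalization or voom. Psme4, which encodes the activator PA200, was at 6.23, 4.55 and 5.67 RPKM in OCP and 6.39, 6.26 and 7.46 RPKM in OC, all OC libraries above all OCP libraries (log2 fold change 0.25, SE 0.11, adjusted p = 0.075). It passed with TMM factors (adjusted p = 0.036) and in voom on reads recovered from the RPKM values (adjusted p = 0.0084). Psmf1, the inhibitor PI31, measured 2.09, 1.80 and 1.77 RPKM in OCP and 1.79, 1.69 and 1.67 RPKM in OC, with overlap (log2 fold change -0.08, adjusted p = 0.34). Psmc3ip was at 8.83 ± 0.539 and 8.09 ± 0.492 RPKM (adjusted p = 0.18) and shares 385 of its exon bases (21.2%) with Mlx.

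Over the whole family, 14 of the 24 called members kept the call in every alternative that tested them. They were Psmb3, Psmb5, Psmb7, Psmc1 to Psmc5, Psmd5, Psmd7, Psmd8, Psme1, Psmg1 and Psmg3. Psmg3 was not tested under the filter on a mean of 5 RPKM and was called in the other 13 alternatives. The other 10 called members lost the call in at least 1 alternative. Of the 24 tested members without a call, 12 gained one in at least 1 alternative, and no member's called direction turned. Exon bases were shared with another row in 15 of the 49 members.

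Genes that work with the proteasome gave calls in both directions. Lists of 7 roles held 76 tested genes, of which 27 rose (35.5%) and 17 fell (22.4%), against 23.5% and 32.1% of all genes tested, and their median log2 fold change was 0.05. Among 12 genes for subunits and partners with other names, 2 rose and 2 fell. Adrm1, a ubiquitin receptor of the 19S base, fell from 34.5 ± 1.58 to 25.4 ± 0.538 RPKM, a log2 fold change of -0.42 (adjusted p = 0.00021). Zfand2a, which binds the particle under stress, rose from 21.0 ± 0.596 to 26.4 ± 1.18 RPKM (log2 fold change 0.32, adjusted p = 0.0010). Pomp, the chaperone that completes the beta ring, was at 21.8 ± 1.40 and 20.4 ± 0.657 RPKM and was not called (log2 fold change -0.09, adjusted p = 0.22).

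The transcription factor NRF1, encoded by Nfe2l1, raises proteasome genes when the particle is short. Nfe2l1 was at 124, 131 and 132 RPKM in OCP and 128, 129 and 125 RPKM in OC, which overlapped (log2 fold change -0.02, adjusted p = 0.75). Of 8 genes of NRF1 and NRF2 control, 4 rose and 4 were not called. Those that rose were Ddi2, the protease that releases NRF1, and the small Maf partners Mafg, Mafk and Maff, of which Maff went from 5.57 ± 0.381 to 14.0 ± 1.13 RPKM (log2 fold change 1.19, SE 0.07, adjusted p = 7.2e-06).

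Of 11 genes for shuttles that bring substrates to the proteasome and for the unfoldase Vcp with its cofactors, 4 fell and 1 rose. The rise was in Ddi2, by a log2 fold change of 0.22 (adjusted p = 0.0070), which is also in the list of NRF1 control. A list of 7 tested heat-shock genes had 3 higher and 2 lower in OC, with Hspa8 at 752 ± 20.7 and 909 ± 19.1 RPKM. Their part in these values was not tested.

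Genes that load proteasome products onto MHC class I gave 5 rises and 1 fall among 9. B2m, the light chain of MHC class I, rose from 133 ± 6.42 to 292 ± 10.9 RPKM (log2 fold change 1.13, SE 0.05, adjusted p = 1.4e-06). Tap2, the other chain of the peptide transporter, fell from 50.2 ± 2.21 to 38.0 ± 1.09 RPKM, a log2 fold change of -0.39 (adjusted p = 0.00031). Tap1, whose exons meet those of Psmb9, measured 16.6, 18.9 and 18.5 RPKM in OCP and 19.1, 19.2 and 18.6 RPKM in OC and overlapped (log2 fold change 0.07, adjusted p = 0.33). Within the MHC stretch of chromosome 17 that holds Psmb9, Tap1, Psmb8 and Tap2 in this order, only Tap2 was called.

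Interferon control genes gave 7 rises and 2 falls among 14 tested. Nlrc5, the activator of MHC class I genes, rose from 6.14 ± 0.235 to 7.92 ± 0.296 RPKM (log2 fold change 0.32, adjusted p = 0.0015), and Irf8, a macrophage transcription factor, from 10.6 ± 0.176 to 23.8 ± 1.06 RPKM (log2 fold change 1.09, adjusted p = 1.5e-06). Irf1, which activates Psmb8, Psmb9 and Psmb10 under interferon gamma, went from 11.7 ± 0.737 to 9.97 ± 0.406 RPKM (log2 fold change -0.21, adjusted p = 0.017), a call lost without OCP library 2 or OC library 2. Irf9 fell by 0.25 on the log2 scale (adjusted p = 0.0019).

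Interferon-induced genes moved both ways, with 6 higher and 7 lower of 17 tested. Irf7 went from 99.8 ± 4.57 to 208 ± 8.33 RPKM (log2 fold change 1.05, adjusted p = 2.0e-06) and Gbp7 from 21.6 ± 3.30 to 16.0 ± 1.48 RPKM (log2 fold change -0.41, adjusted p = 0.018), the latter lost without OCP library 1 or 3 or OC library 1 or 2. The plot of pathway genes shows this mixture by list.

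**Figure D4:**
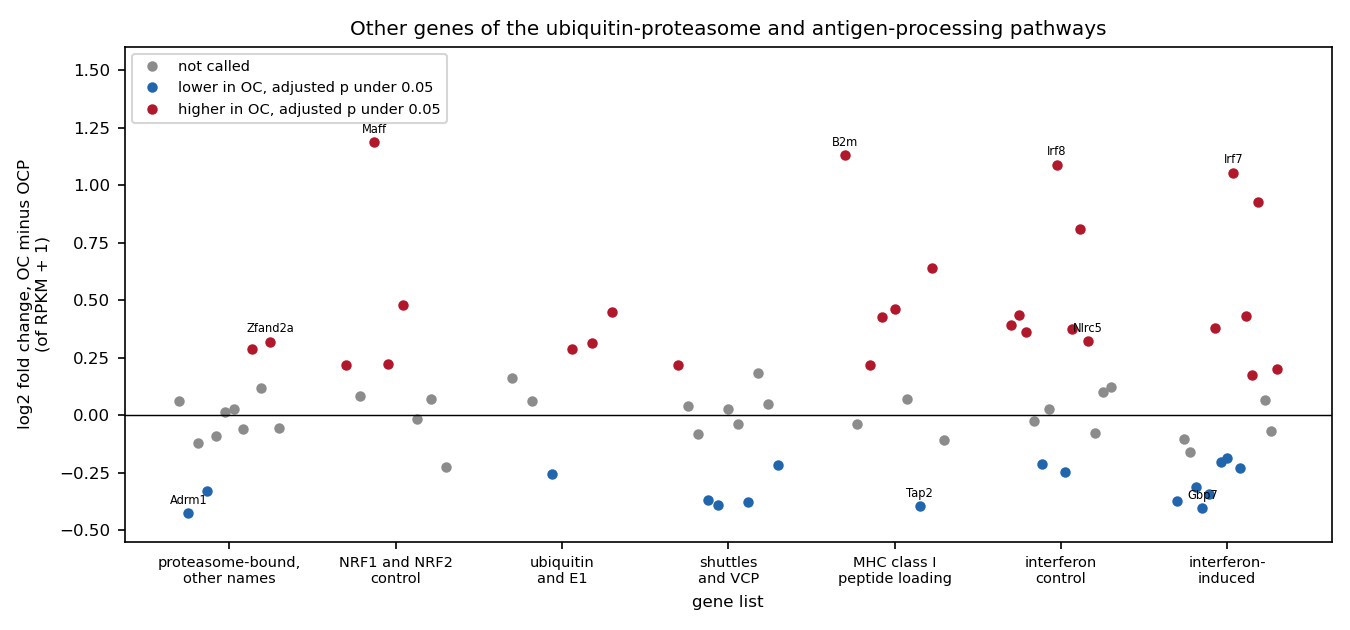
Log2 fold change of RPKM + 1, OC minus OCP, of 76 tested genes in 7 lists of proteasome partners, ubiquitin handling, peptide loading and interferon control (Ddi2 is drawn in 2 lists), coloured by the call at an adjusted p under 0.05, with names for some of the genes described in the text. The lists hold both rises and falls, from -0.42 for Adrm1 to 1.19 for Maff.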

How the data were processed

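The deposited table held RPKM values for 26529 genes in 6 RNA-seq libraries, 3 per group. Per the labels' protocols, RNA was taken with TRIzol and a stranded mRNA kit was used. The submitters' processing notes list Trimmomatic 0.36 for trimming, STAR 2.5.3a for alignment and featureCounts for counting. How strand and multiply mapped reads were treated is not given in the sources used here, which leaves overlapping genes and near copies uncertain. A human build, GRCh38, is listed there, but 39 of 49 members have the exact coordinates of GENCODE M21 on GRCm38, and positions are given on that build. RPKM times length came out whole within 0.01 reads for 100% of values. Within groups, chi-square over degrees of freedom was 5.18 to 21.4, so no library repeats another.

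A gene was tested if it reached 1 RPKM in 3 or more libraries. The test was limma 3.58.1, run in R 4.3.3 with statmod 1.5.0, on log2(RPKM + 1), two-sided, with trend and robust options. P-values were adjusted by Benjamini-Hochberg over all 12301 genes, with a threshold of 0.05. Ratios within a library were compared by exact permutation. The steps were tested on simulated data. Promoter windows came from RefSeq on GRCm38.p6, and 41 of 49 members had an entry.

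The members, lists and rule for named genes were chosen with earlier results of these data known. Named in full were the immunoproteasome genes, their counterparts and, in each class, the members with the largest and smallest change. In each pathway list, called genes with the largest rise and fall were named, beside Nfe2l1, Pomp, Tap1, Irf1 and Nlrc5. Some genes that the rule names are not reported here. Other members were named with their class. The 14 alternatives were a pseudocount of 0.1, no filter, a filter on the mean at 5 RPKM, TMM factors, quantile normalization, neither trend nor robust options, a replicate block, voom on recovered reads, and leaving out each library in turn.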

Additional observations from a re-analysis of the deposited data

How the results depend on the processing

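Among members outside the immunoproteasome, the count called lower was 21 and ran from 15 to 22 over the 14 alternatives. The share was 34.1% against 14.0% of all genes with no filter, and 53.7% against 40.2% with the filter on the mean. It was 34.9% against 33.2% with quantile normalization, and 34.9% to 44.2% against 27.4% to 30.8% when a library was left out. Called higher were 2.27% to 6.98% of these members over the alternatives, against 12.2% to 28.0% of all genes. The count called higher was 1, and it was 2 with a filter on the mean at 5 RPKM, 3 with TMM factors, quantile normalization, the replicate block or voom, and 1 to 3 when a library was left out. Of the immunoproteasome genes, 1 was called higher (2 with quantile normalization) and 1 lower, which became 0 with no filter, TMM factors, quantile normalization or the replicate block, and 0 to 1 when a library was left out. The median log2 fold change of members outside the immunoproteasome was -0.12 with TMM factors, quantile normalization or voom and -0.17 to -0.13 when a library was left out. That of the immunoproteasome genes was 0.0941 with TMM factors, 0.0872 with quantile normalization and 0.0945 with voom. The median log2 fold change of all genes was -0.000361 with no filter, -0.0853 with a filter on the mean at 5 RPKM, -0.0117 with TMM factors, -0.0140 with voom and -0.0619 with quantile normalization. Under the filter on the mean, 1645 of 7228 genes were called higher, against 2889. The cause of these moves was not tested, beyond the smaller or larger number of genes tested under another filter.

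No pairing of libraries by replicate number was seen in their deviations from the group means. The correlation of these deviations was -0.11, 0.14 and 0.01 for libraries of the same number, and OCP 1 correlated best with OC 3 (0.26). With 3 libraries per group, and no label on how replicates arose, these correlations cannot settle whether the numbers pair libraries. With the replicate block, 19 members outside the immunoproteasome were called lower (44.2%) and 3 higher (6.98%), against 31.3% and 23.0% of all genes. Psma1 and Psma2 were then called lower (adjusted p = 0.035 and 0.025) and Psmd11 and Psme4 higher (0.037 and 0.046), while Psmb10 (0.0505), Psmd2, Psmd6, Psmd9 and Psme3 lost their calls. The 3 log2 ratios kept their direction with paired libraries, a pseudocount of 1 RPKM and each library left out, the alternatives run for them, and with paired libraries the exact permutation p of Psmb8 to Psmb5 was 0.25, the smallest that 3 pairs allow. The calls of Psmb1, Psmb2, Psmb10, Psmd2, Psmd6, Psmd9, Psme3 and Psmg2 were each lost on leaving out any of at least 4 of the 6 libraries.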

Other observations

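The genes on both sides of Psmd8 on chromosome 7 also had higher values in the OC libraries, though all 3 were under the filter on low values. They were picked after their values were seen. Spred3, an inhibitor of the RAS pathway 3776 bases from Psmd8 on the same strand, was at 0.233 ± 0.0496 RPKM in the OCP libraries and at 1.06 ± 0.0949 RPKM in the OC libraries (SD, n = 3 each), with adjusted p = 0.00052 in limma without a filter. Ggn, a testis gene 211 bases from Psmd8 on the other strand, was at 0.352 ± 0.0679 and 0.818 ± 0.0431 RPKM (adjusted p = 0.0037 in limma without a filter). Catsperg1, a sperm ion channel gene 619 bases away, had 6, 4 and 6 recovered reads in OCP and 17, 12 and 26 in OC (adjusted p = 0.053 in limma without a filter). The dropped pseudogene rows Psmb5-ps, Psmb6-ps2 and Psmb7-ps2 had at most 6 recovered reads in any library.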
